A study of Mus musculus with 6 samples.

Results

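Ribosome biogenesis and nucleolar genes were followed together with Myc in CD4-CD8- double-negative (DN) cells of cultured fetal mouse thymus. The set held 40 gene symbols, and 38 of them had a probe set annotated to that single gene, out of 12393 genes measured in all. Dkc1 and Mrto4 had no such probe set and are not analysed here. Where a gene had several probe sets, the one with the highest mean over the 6 arrays was used. All cells came from C57BL/6 fetuses taken at day 15 of gestation, whose thymus lobes were kept for 6 days in organ culture, to an age of 21 days post coitum. The medium held 10 nM TCDD (2,3,7,8-tetrachlorodibenzo-p-dioxin, a ligand of the aryl hydrocarbon receptor, AHR) or its solvent dioxane, given as 0.1% by volume for the thymocyte sample, and was renewed every 2 days. DN cells were isolated with magnetic beads from the ground lobes (thymocytes) or from buffer that had been used to flush the lobes (emigrants), to a stated purity above 95%. RNA of pooled cells was amplified and hybridised to 1 Affymetrix array per sample. The 6 arrays were 1 of thymocytes with dioxane, 1 of thymocytes with TCDD, 2 of emigrants with dioxane and 2 of emigrants with TCDD. The labels number the 2 emigrant arrays with TCDD 1 and 2, and 1 emigrant array with dioxane 2. The other emigrant array with dioxane has no number in its label and was taken as 1. TCDD minus dioxane was taken within 3 pairs: thymocytes, emigrants 1 and emigrants 2. The pairing of the emigrant arrays is thus an assumption. The labels do not say whether the arrays within a group represent different cultures. Every p-value below therefore reflects array-to-array spread, part of which may be technical. Emigrant arrays 1 and 2 also differed in markers of cell type, given below, and the main fits do not account for this.

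Ribosomes are built in the nucleolus. RNA polymerase I copies the ribosomal RNA genes, small nucleolar ribonucleoproteins (snoRNPs) guide the chemical modification of the transcript, and a large set of assembly factors cuts, folds and exports the precursors of the small and large subunits. Myc is a transcription factor that binds the E-box CACGTG and activates many of these genes, and developing thymocytes need it when they grow and divide.

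Values are log2 expression levels from RMA, which corrects background and normalises across arrays. A difference of 1 unit is 2-fold, and RMA understates the differences of dim genes. The median level of the 38 genes was 6.42 to 7.26 on the 6 arrays, against 5.23 to 5.28 for all genes. The shares of all genes given below for array differences were not matched for level, so they come from dimmer genes on the whole. Array medians lay between 4.84 and 4.88, and the number of arrays limits the precision. The highest probe set for bacterial transcripts that the samples should lack read 4.32 to 4.92, and 34 of the 38 genes stayed above it on all 6 arrays. Ftsj3 was at or under it on 5 arrays, Tsr1 and Nop16 on 2 and Ppan on 1, so their differences are bounded by background. The median of 13 DN T-lineage markers (among them Ptcra, Rag1, Cd3e and Il2ra) was 9.41 and 8.60 in thymocytes with dioxane and TCDD, 5.69 and 5.00 in emigrants 1, and 8.46 and 6.78 in emigrants 2. On the emigrants 1 TCDD array 6 of these 13 markers read at or under the highest bacterial control, so the DN T-cell label was weakly borne out there. The median of 12 granulocyte and mast cell markers was 8.24 and 9.85 in emigrants 1 and 4.87 to 6.16 on the other 4 arrays, and that of 7 erythroid markers was 7.64 and 7.24 against 4.96 to 5.33. Not every gene of these lists followed its median. The mast cell gene Cpa3 read 6.51 and 6.75 in emigrants 1 but 8.14 on the emigrants 2 dioxane array. Among erythroid genes, Hba-a1 read 4.08 and 4.49 in emigrants 1 and 4.43 to 4.53 elsewhere. Car2 was also high with TCDD in thymocytes (9.65) and emigrants 2 (9.42). Macrophage and dendritic markers (11 genes) had medians of 8.66 to 9.07 on 3 emigrant arrays, 6.69 on the emigrants 2 dioxane array, and 5.13 and 5.49 in thymocytes. In such bulk samples, fewer cells of a type and less RNA per cell cannot be told apart.

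Promoter windows from 250 bases before to 50 bases after the annotated start (RefSeq, GRCm38.p6) were found for 32 of the 38 genes, in 36 windows. They were searched on both strands for CACGTG, the E-box of Myc, and for TNGCGTG, the core of the AHR response element. The E-box stood in the windows of 6 of the 32 genes (18.8%), against 8.09% of the 27025 genes in the table. The AHR core stood in those of 7 of the 32 (21.9%), against 5.84%. Of 86 other ribosome assembly factors with a window, 18.6% had the E-box and 15.1% the AHR core. The members' windows had a median of 59.5% G and C and 21.5 CG dinucleotides, against 52.7% and 7 over all windows, and both motifs contain CG. These matches describe letters and no binding. The 6 E-boxes are shown because their genes span the responses described below, with the E-box in capitals, 5′ to 3′ on the gene's strand.
Nop2, chr6:125131733-125131882, plus strand, the 150 bases upstream of the start: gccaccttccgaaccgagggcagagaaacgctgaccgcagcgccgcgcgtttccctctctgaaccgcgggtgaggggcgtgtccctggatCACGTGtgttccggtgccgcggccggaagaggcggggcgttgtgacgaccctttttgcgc
Imp4, chr1:34439696-34439725, plus strand: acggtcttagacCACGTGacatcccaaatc
Pes1, chr11:3963965-3963994, plus strand: ccctaggcagggCACGTGcgggaggaagta
Wdr43, chr17:71616220-71616249, plus strand: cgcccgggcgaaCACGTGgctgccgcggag
Tsr1, chr11:74898092-74898121, plus strand: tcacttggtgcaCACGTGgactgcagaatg
Mybbp1a, chr11:72441347-72441376, plus strand: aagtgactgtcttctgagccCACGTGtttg
The E-box began 60 bases upstream of the start in Nop2 and 121 bases upstream in Imp4, and 2 to 40 bases downstream of it in the other 4 genes. The 7 genes with the AHR core were Bysl, Ddx21, Gar1, Nop10, Pes1, Polr1a and Polr1b. Of these, Ddx21 alone was lower with TCDD in all 3 pairs. Gar1 and Nop10 were lower in emigrants 2 alone, and the others in thymocytes and emigrants 2 but not in emigrants 1. As a single example, Ddx21, a nucleolar RNA helicase, carried the AHR core on the opposite strand, 54 bases upstream of its start, in capitals here.
Ddx21, chr10:62602335-62602364, minus strand: gccttgccggtaCACGCTActtccgccgga

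The first comparison asked how these genes differed with TCDD. In thymocytes, 31 of the 38 genes were lower with TCDD, with a median of -0.53 (range -2.64 to 0.79) against 0.0085 over all genes. In emigrants 2, 38 of 38 were lower, with a median of -0.56 (range -1.67 to -0.035) against -0.024 over all genes. In emigrants 1, 26 of 38 were higher, with a median of 0.35 (range -1.12 to 1.38) against -0.021. Of all 12393 genes, 6011 were lower with TCDD in thymocytes and 6774 in emigrants 2, and 5969 were higher in emigrants 1. The 3 pairs share no array. Of the 38 genes, 12 were lower with TCDD in all 3 pairs, where 17.4% of all genes were, and 0 were higher in all 3, where 15.4% were. Another 19 genes, Myc among them, were lower in thymocytes and emigrants 2 but higher in emigrants 1, a pattern of 14.6% of all genes. The remaining 7 (Nhp2, Nop10, Gar1, Rrp9, Polr1c, Imp4 and Emg1) were lower in emigrants 2 alone.

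**Figure D1:**
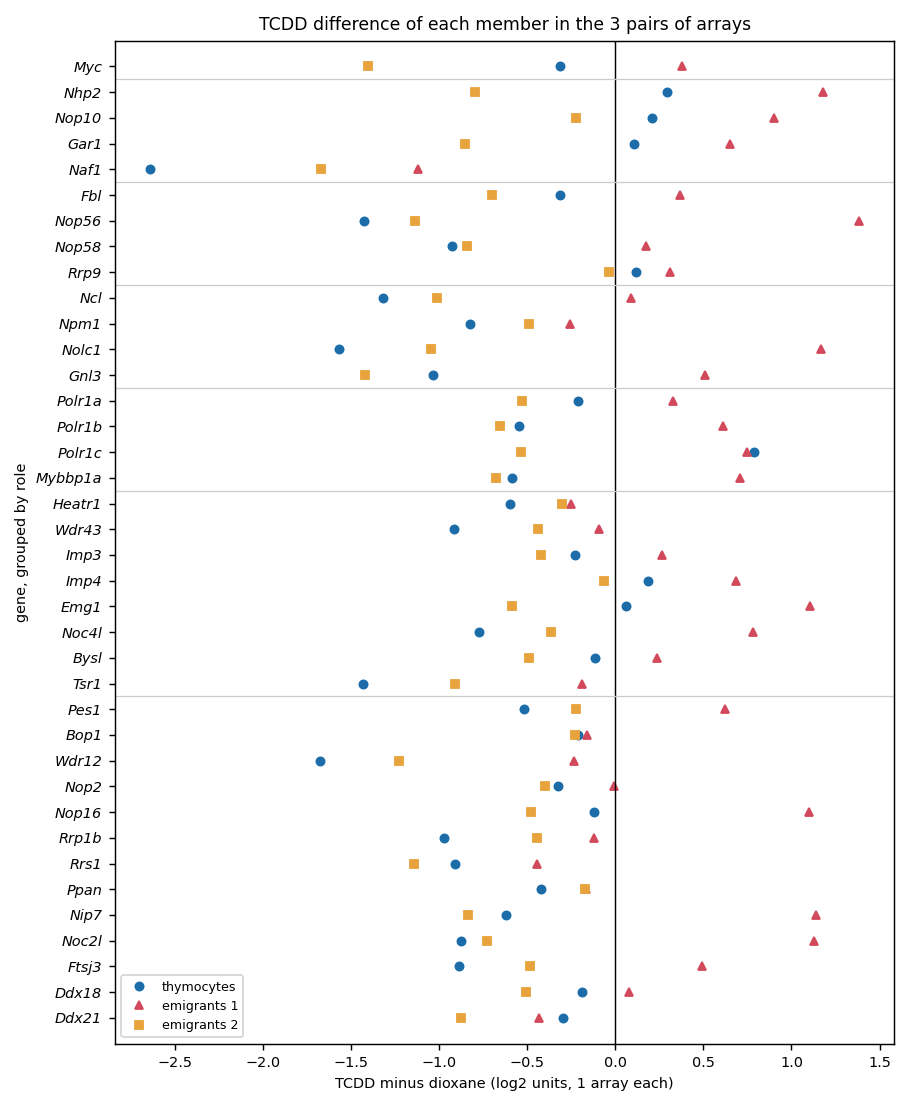
TCDD minus dioxane in log2 units (horizontal axis) for each of the 38 genes (vertical axis, grouped by role, grey lines between roles). Each point is the difference of 2 arrays: circles are thymocytes, triangles emigrants 1 and squares emigrants 2. All 38 squares lie left of 0, as do 31 circles, while 26 triangles lie right of 0.

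At least 2-fold lower with TCDD were 7 of the 38 genes in thymocytes (2.79% of all genes), 1 in emigrants 1 (2.56%) and 8 in emigrants 2 (2.16%). At least 2-fold higher were 0 in thymocytes (2.83% of all genes), 7 in emigrants 1 (3.66%) and 0 in emigrants 2 (3.43%). The 3 TCDD arrays all lay under the 3 dioxane arrays for 9 of the 38 genes (4.61% of all genes), namely Naf1, Heatr1, Wdr43, Tsr1, Nop2, Rrp1b, Rrs1, Ppan and Ddx21. They all lay above the dioxane arrays for 0 of the 38 (3.47% of all genes). Because the 38 genes were brighter than all genes by median, a higher share among them cannot be read as an excess of the set.

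None of the 38 genes passed the test over all 3 pairs. In limma's fit with cell source as a covariate, 0 of 12393 genes had an adjusted p under 0.05 (0% called, smallest adjusted p = 0.483), and 659 had an unadjusted p under 0.05 (5.32%). Of the 38 genes, 5 had an unadjusted p under 0.05, all 5 of them lower, where 2.63% of all genes were lower at that level. The median fitted difference over the 38 genes was -0.21, with 31 of 38 below 0, against -0.016 over all genes, with 52.8% below 0. It was -0.44 without the emigrants 1 TCDD array, -0.42 without the emigrants 1 dioxane array, and -0.11 when either thymocyte array was left out. With both emigrant 1 arrays left out, a choice made after their blood cell markers were seen, 35 of 38 genes were below 0 with a median of -0.58, and still 0 genes passed.

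Myc measured 5.85 with dioxane and 5.54 with TCDD in thymocytes, 5.66 and 6.04 in emigrants 1, and 6.33 and 4.93 in emigrants 2. Its highest and its lowest value thus both came from emigrants 2, and the treatments overlapped. Over the 3 pairs its fitted difference was -0.45 ± 0.35 (log2, SE, n = 3 arrays per treatment, limma adjusted p = 0.999). That value was -0.11 without the emigrants 2 TCDD array, -0.23 without the emigrants 2 dioxane array and -0.74 without the emigrants 1 TCDD array. Within the pairs it differed by -0.31, 0.38 and -1.40, and the median of the other 37 genes by -0.54, 0.33 and -0.54. The sign of the difference in Myc was shared by 30 of the 37 in thymocytes, 25 in emigrants 1 and 37 in emigrants 2.

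Among H/ACA snoRNP genes, whose particles turn uridines of ribosomal RNA into pseudouridine, Naf1 had the fitted difference furthest from 0 over the 3 pairs. Naf1 encodes an assembly factor that is exchanged for Gar1 when the particle matures. It measured 9.44 with dioxane and 6.80 with TCDD in thymocytes, 8.40 and 7.28 in emigrants 1, and 8.18 and 6.51 in emigrants 2. All 3 TCDD values lay under all 3 dioxane values. The fitted difference of -1.81 ± 0.35 (log2, SE, n = 3) was the 8th lowest of 12393 genes, yet did not pass (limma, adjusted p = 0.764). The core proteins of the same particle differed from Naf1 in sign in thymocytes and emigrants 1, and shared its sign in emigrants 2. Nhp2 measured 9.47 and 9.76 in thymocytes, 9.14 and 10.31 in emigrants 1, and 8.92 and 8.13 in emigrants 2. For Nhp2, Nop10 and Gar1 alike, the highest array was emigrants 1 with TCDD and the lowest emigrants 2 with TCDD. Nop10 differed by 0.21, 0.90 and -0.22 in the 3 pairs, and Gar1 by 0.11, 0.65 and -0.85.

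Box C/D snoRNPs guide methylation of ribosomal RNA. Nop56, a core scaffold of the particle, measured 8.49 with dioxane and 7.07 with TCDD in thymocytes, 6.16 and 7.54 in emigrants 1, and 8.17 and 7.04 in emigrants 2. The dioxane array of emigrants 1 was its lowest, and the TCDD arrays lay within the dioxane range. Its partner Nop58 differed by -0.93, 0.17 and -0.84, and Fbl, the methyltransferase fibrillarin, by -0.31, 0.37 and -0.70. Rrp9, which is specific to the U3 snoRNP, varied by only 0.31 over the 6 arrays.

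The abundant nucleolar phosphoproteins were lower with TCDD in thymocytes and emigrants 2. Ncl, nucleolin, measured 9.50 and 8.18 in thymocytes, 8.88 and 8.97 in emigrants 1, and 10.23 and 9.22 in emigrants 2. Npm1, the ribosome chaperone nucleophosmin, measured 11.57 and 10.74, 11.06 and 10.80, and 11.70 and 11.21. Npm1 was lower with TCDD within each pair, although the treatments overlapped between pairs. Nolc1, a chaperone of snoRNPs, differed by -1.57 in thymocytes, 1.17 in emigrants 1 and -1.04 in emigrants 2. Gnl3, the GTPase nucleostemin, differed by -1.03, 0.51 and -1.42. As a group of 4, these genes had medians of -1.18, 0.30 and -1.03 in the 3 pairs.

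**Figure D2:**
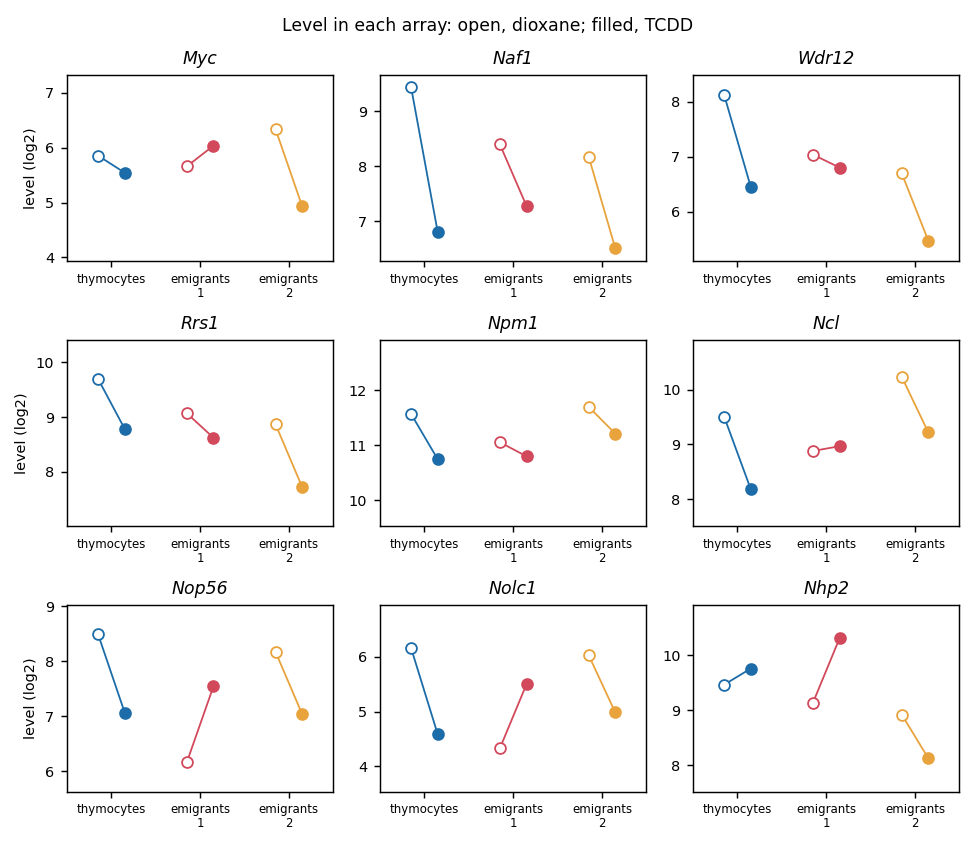
Log2 level (vertical axes, each spanning 3.4 log2 units) of 9 genes in the 6 arrays. Open circles are dioxane, filled circles TCDD, and lines join the 2 arrays of a pair. Naf1, Wdr12, Rrs1 and Npm1 slope downward in all 3 pairs, while Myc, Ncl, Nop56 and Nolc1 slope upward in emigrants 1, and Nhp2 slopes downward in emigrants 2 alone.

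The 4 genes of RNA polymerase I and its transcription had medians of -0.38, 0.66 and -0.60 in the 3 pairs. Polr1b, the second largest subunit, differed by -0.54, 0.61 and -0.65 in the 3 pairs, and Polr1a, the largest, by -0.21, 0.33 and -0.53. Polr1c, which RNA polymerases I and III share, measured 8.76 and 9.55 in thymocytes, 8.91 and 9.66 in emigrants 1, and 8.79 and 8.25 in emigrants 2. Its 3 dioxane arrays lay within 0.15 of the lowest of them, and its TCDD arrays lay on either side. Mybbp1a, a nucleolar Myb-binding protein whose E-box is shown above, differed by -0.59, 0.71 and -0.68.

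Of 8 genes for the small subunit, 6 were lower with TCDD in thymocytes, 3 in emigrants 1 and 8 in emigrants 2. Tsr1, a late assembly factor with an E-box just downstream of its start, measured 5.58 and 4.15 in thymocytes, 4.58 and 4.38 in emigrants 1, and 5.37 and 4.46 in emigrants 2. Its TCDD values lay under every dioxane value, and its fitted difference was -0.84 ± 0.30 (log2, SE, n = 3, limma adjusted p = 0.889), or -0.55 when either thymocyte array was left out. Heatr1 and Wdr43, which join the nascent transcript early, were also lower with TCDD in each pair. Heatr1 had a fitted difference of -0.38 ± 0.15 (limma adjusted p = 0.928, n = 3), or -0.18 with the mean over its probe sets, and Wdr43 differed by -0.91, -0.09 and -0.44 in the 3 pairs. Emg1, a methyltransferase of the small subunit, ran the other way in emigrants 1, by 1.10, and Noc4l, a processome component, by 0.78.

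Of 13 genes for the large subunit, 13 were lower with TCDD in thymocytes, 7 in emigrants 1 and 13 in emigrants 2. Wdr12, which forms a complex with Pes1 and Bop1, measured 8.13 and 6.45 in thymocytes, 7.04 and 6.80 in emigrants 1, and 6.70 and 5.47 in emigrants 2. The emigrants 2 dioxane array lay under the emigrants 1 TCDD array, so the treatments overlapped. Its fitted difference was -1.05 ± 0.41 (log2, SE, n = 3, limma adjusted p = 0.928), or -0.62 with the mean over its probe sets. Pes1 differed by -0.52, 0.62 and -0.22, and Bop1 by -0.21, -0.16 and -0.23.

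Rrs1, a factor that helps place the 5S ribosomal RNA, measured 9.70 and 8.79 in thymocytes, 9.07 and 8.62 in emigrants 1, and 8.87 and 7.72 in emigrants 2. The groups did not overlap, and the fitted difference was -0.83 ± 0.27 (limma adjusted p = 0.832, n = 3). Rrp1b, a nucleolar partner of protein phosphatase 1, was lower by a fitted -0.51 ± 0.20 (limma adjusted p = 0.928, n = 3), which was -0.24 with the mean over its probe sets and -0.28 without either thymocyte array. Nop2, a methyltransferase of the large subunit's RNA with the upstream E-box shown above, measured 5.33 and 5.01, 5.18 and 5.17, and 5.33 and 4.93. Those TCDD values lay under the dioxane values, though by 0.01 in emigrants 1. The helicase Ddx21 differed by -0.30, -0.43 and -0.88, and Ddx18 by -0.19, 0.08 and -0.51. Nip7 and Noc2l differed by 1.14 and 1.13 in emigrants 1, against -0.62 and -0.88 in thymocytes and -0.84 and -0.73 in emigrants 2.

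Other probe sets of these genes did not always go the same way. Of the 38 genes, 22 had more than 1 probe set. Second probe sets gave emigrants 1 a positive difference for Ddx21 (0.65), Wdr43 (0.59), Npm1 (0.066) and Rrp1b (0.17). In thymocytes other probe sets were higher with TCDD for Heatr1 (0.14), Ddx18 (0.34), Pes1 (0.19), Nop16 (0.14), Mybbp1a (0.086), Rrp1b (0.060) and Polr1a (0.022). All of these but that of Polr1a had mean levels of 3.73 to 4.39. Ddx18, Pes1, Nop16 and Rrp1b are among the large-subunit genes that were all lower in thymocytes on the probe sets used. In emigrants 2, where 38 of 38 genes were lower on the probe sets used, other probe sets were higher with TCDD for Ddx18 (0.16), Imp4 (0.019) and Nop16 (0.0084), each with a mean level of 4.32 to 4.39. In emigrants 1 the second probe set of Imp4 gave -0.80 against 0.69 on the one used, and that of Polr1a -0.42 against 0.33. The second probe set of Nolc1 gave -1.28, -0.18 and -0.64, that of Polr1c -0.13 in thymocytes, and that of Ncl -0.14 in emigrants 1. Wdr12 was also lower in all 3 pairs on its second probe set, at -0.31, -0.14 and -0.14, although that one and the second of Heatr1 had means of 3.52 and 3.84, under the highest bacterial control. Naf1, Rrs1, Tsr1, Bop1, Nop2 and Ppan had a single probe set.

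**Figure D3:**
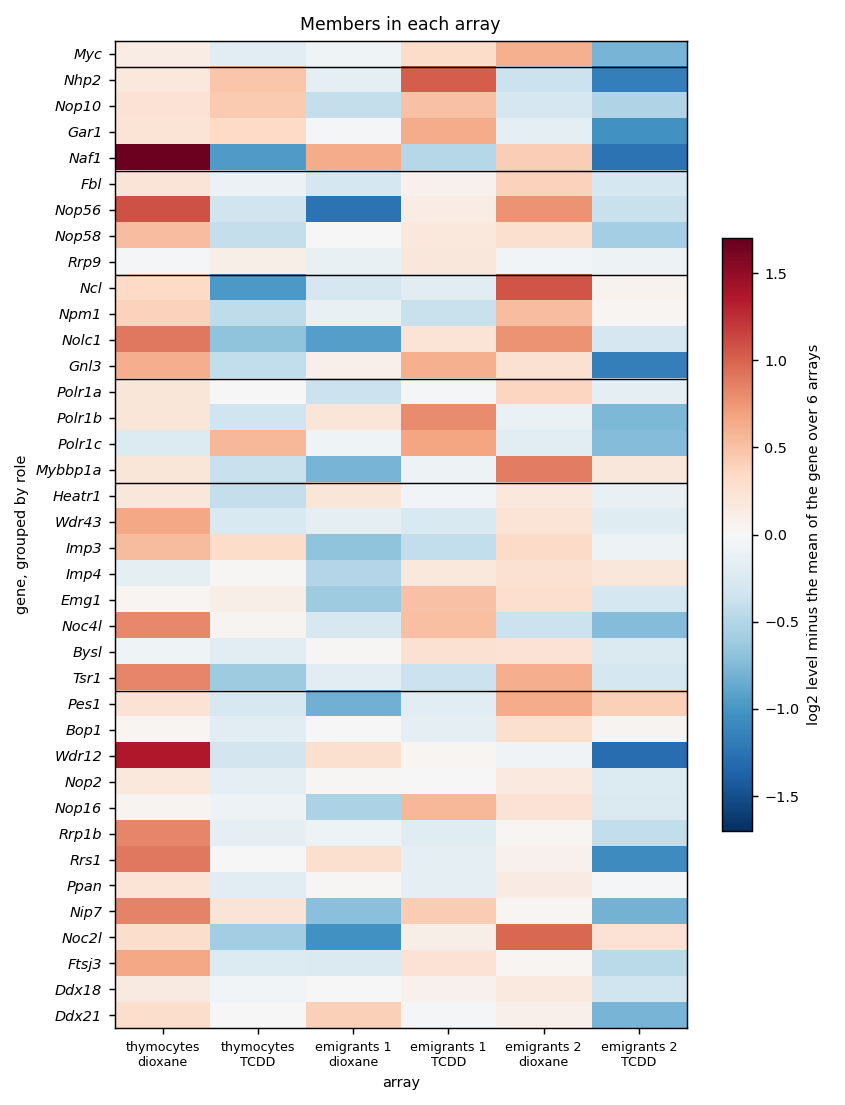
Log2 level of each gene (rows, grouped by role) in each array (columns) minus the gene's mean over the 6 arrays, red above and blue below that mean. The scale ends at -1.7 and 1.7. The thymocyte dioxane array is the highest of the 6 for 16 genes and the emigrants 2 TCDD array the lowest for 20.

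Over the 6 arrays, the thymocyte dioxane array was the highest for 16 of the 38 genes (16.4% of all genes), the emigrants 2 dioxane array for 11 and the emigrants 1 TCDD array for 9. The lowest was the emigrants 2 TCDD array for 20 genes (22.2% of all genes), the emigrants 1 dioxane array for 11 (21.6%) and the thymocyte TCDD array for 7. Where no share is given here, it was not taken over all genes, so those counts have no background beside them. The emigrants 1 dioxane array was low for Nop56, Nolc1, Noc2l and Mybbp1a, which read 1.66 to 2.01 below the emigrants 2 dioxane array.

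In emigrants alone (2 arrays per treatment), 23 of the 38 genes were below 0 with TCDD (53.5% of all genes). Their median fitted difference was -0.11 against -0.023 over all genes. No gene of the 12393 was called by limma (0%, with no adjusted p under 1.00 after rounding). An unadjusted p under 0.05 was reached by 255 genes (2.06%, and 0.815% lower with TCDD), and of the 38 genes by Naf1 alone. Naf1 had a fitted difference of -1.40 ± 0.34, Rrs1 of -0.80 ± 0.38, Wdr12 of -0.73 ± 0.50, Ddx21 of -0.65 ± 0.35, Tsr1 of -0.55 ± 0.34 and Heatr1 of -0.28 ± 0.22 (log2, SE, n = 2 per group, limma adjusted p = 1.00 for each). Myc differed by -0.51 ± 0.48 (limma adjusted p = 1.00). These values moved widely with single arrays. Wdr12 ran from -1.40 without the emigrants 1 TCDD array to -0.066 without the emigrants 2 TCDD array, and Rrs1 from -1.25 to -0.35 and Ddx21 from -1.03 to -0.27 with the same omissions. Tsr1 ran from -0.95 without the emigrants 1 dioxane array to -0.15 without the emigrants 2 dioxane array. With the mean over probe sets Ddx21 had -0.27, Wdr12 -0.44 and Heatr1 -0.15. The median over the 38 genes was 0.015 without the emigrants 2 dioxane array and 0.032 without the emigrants 2 TCDD array, and -0.40 and -0.34 without those of emigrants 1.

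The difference of the TCDD effect between emigrants and thymocytes was tested itself. It was above 0, that is less negative or more positive in emigrants, for 31 of the 38 genes and for 5893 of all 12393. The median was 0.38 against -0.022 over all genes. None of the 12393 genes was called by limma (0%). An unadjusted p under 0.05 was reached by 97 genes (0.783%, and 0.331% with a negative difference), 0 of the 38 among them. Nolc1 differed by 1.63 ± 1.08, Naf1 by 1.24 ± 0.60, Ftsj3 by 0.89 ± 0.57, Tsr1 by 0.88 ± 0.59, Rrp1b by 0.69 ± 0.41 and Wdr43 by 0.65 ± 0.44, and Myc by -0.20 ± 0.83 (log2, SE, limma adjusted p = 1.00 for each). The median over the 38 genes was 0.074 without the emigrants 1 dioxane array and 0.14 without the emigrants 1 TCDD array, and 0.65 and 0.61 without those of emigrants 2. It was 0.23 with the mean over probe sets, where Nolc1 had 0.89 and Rrp1b 0.36. Without the emigrants 1 dioxane array Nolc1 had 0.78 and Tsr1 0.48, without the emigrants 1 TCDD array Ftsj3 had 0.55, and without the emigrants 2 dioxane array Nolc1 had 2.48.

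The second comparison set emigrants against thymocytes (4 arrays against 2, treatment in the fit). The 38 genes differed little between the sources on average, with 26 below 0 in emigrants (56.0% of all genes) and a median of -0.12 against -0.035 over all genes. With the mean over probe sets it was -0.062 and with cyclic loess -0.076. The 4 emigrant arrays all lay under the 2 thymocyte arrays for 0 of the 38 genes (10.8% of all genes), and all above them for 0 (5.46%). In limma's fit 0 of 12393 genes passed (0%), and the smallest adjusted p was 0.165. At an unadjusted p under 0.05 stood 880 genes (7.1%, and 3.9% lower in emigrants), but 0 of the 38. Myc had a mean of 5.74 in emigrants and 5.70 in thymocytes, and differed by 0.041 ± 0.37 (log2, SE, limma adjusted p = 0.999). The smallest p-values belonged to Rrs1 (-0.67 ± 0.28, adjusted p = 0.724), Rrp1b (-0.51 ± 0.22), Imp3 (-0.64 ± 0.32), Nip7 (-0.80 ± 0.44), Wdr12 (-0.78 ± 0.44) and Nop10 (-0.52 ± 0.30), and none passed. Imp3, a U3 snoRNP protein of the small subunit, measured 8.41 and 8.18 in thymocytes, 7.19 and 7.45 in emigrants 1, and 8.20 and 7.78 in emigrants 2. The median over the 38 genes was 0.066 without the thymocyte dioxane array and 0.014 without the emigrants 1 dioxane array. It was -0.034 without the emigrants 2 TCDD array and -0.23 to -0.28 without any 1 of the other 3 arrays. Without the thymocyte dioxane array Rrp1b had -0.16, Wdr12 -0.31 and Nip7 -0.41, and without the thymocyte TCDD array Rrp1b had -0.85 and Wdr12 -1.26. Imp3 had -0.41 without the emigrants 1 dioxane array and Nop10 -0.31 without the emigrants 2 TCDD array. With the mean over probe sets Rrp1b had -0.30 and Wdr12 -0.41.

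Single emigrant arrays differed from the thymocyte array of the same treatment, in a direction that changed with the array and the treatment. Against thymocytes with dioxane, 34 of the 38 genes were lower in emigrants 1 (median -0.57, against 0.0014 over all genes) and 23 in emigrants 2 (median -0.11, against -0.056). At least 2-fold lower were 11 genes in emigrants 1 (6.62% of all genes) and 3 in emigrants 2 (2.03%), and at least 2-fold higher were 0 in either (5.17% and 3.63%). With TCDD, 33 of the 38 were higher in emigrants 1 than in thymocytes (median 0.26, against -0.036), and 26 were lower in emigrants 2 (median -0.20, against -0.082). Among the TCDD arrays, at least 2-fold higher than in thymocytes were 2 in emigrants 1 (4.72%) and 1 in emigrants 2 (4.67%), and at least 2-fold lower were 0 (4.23%) and 5 (1.95%). Myc differed by -0.20 and 0.48 with dioxane and by 0.49 and -0.61 with TCDD, in emigrants 1 and 2. Of all 12393 genes, 6177 were lower in emigrants 1 and 7255 in emigrants 2 with dioxane. With TCDD, 5741 of all genes were higher in emigrants 1 and 7570 lower in emigrants 2. These 4 contrasts share the thymocyte arrays. With dioxane, 4 of 4 H/ACA genes were lower in emigrants 1 (median -0.49) and 4 of 4 in emigrants 2 (median -0.54). With TCDD, 4 of 4 were higher in emigrants 1 (median 0.39) and 4 of 4 lower in emigrants 2 (median -1.16). The 4 phosphoprotein genes had medians of -0.58 and 0.0025 with dioxane, and of 0.85 and 0.43 with TCDD.

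The emigrant arrays also differed from each other. With dioxane, 28 of the 38 genes were lower in emigrants 1 than in emigrants 2, with a median of -0.27. Of all 12393 genes 5727 were lower, with a median of 0.044. Of the 38 genes, 7 were at least 2-fold lower (7.83% of all genes) and 0 at least 2-fold higher (4.71%). With TCDD, 27 of the 38 were higher in emigrants 1, with a median of 0.50. Of all genes 6538 were higher, with a median of 0.028. Of the 38 genes, 10 were at least 2-fold higher (3.81% of all genes) and 0 at least 2-fold lower (5.87%). Nhp2 was the furthest apart with TCDD, at 10.31 in emigrants 1 and 8.13 in emigrants 2, and Nop56 with dioxane, at 6.16 and 8.17. The emigrants 1 arrays were those with a low median of T-lineage markers and high medians of the granulocyte and mast cell list and the erythroid list. Within these lists Cpa3 and Hba-a1 were not high there. The part of the markers in these differences was not tested.

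**Figure D4:**
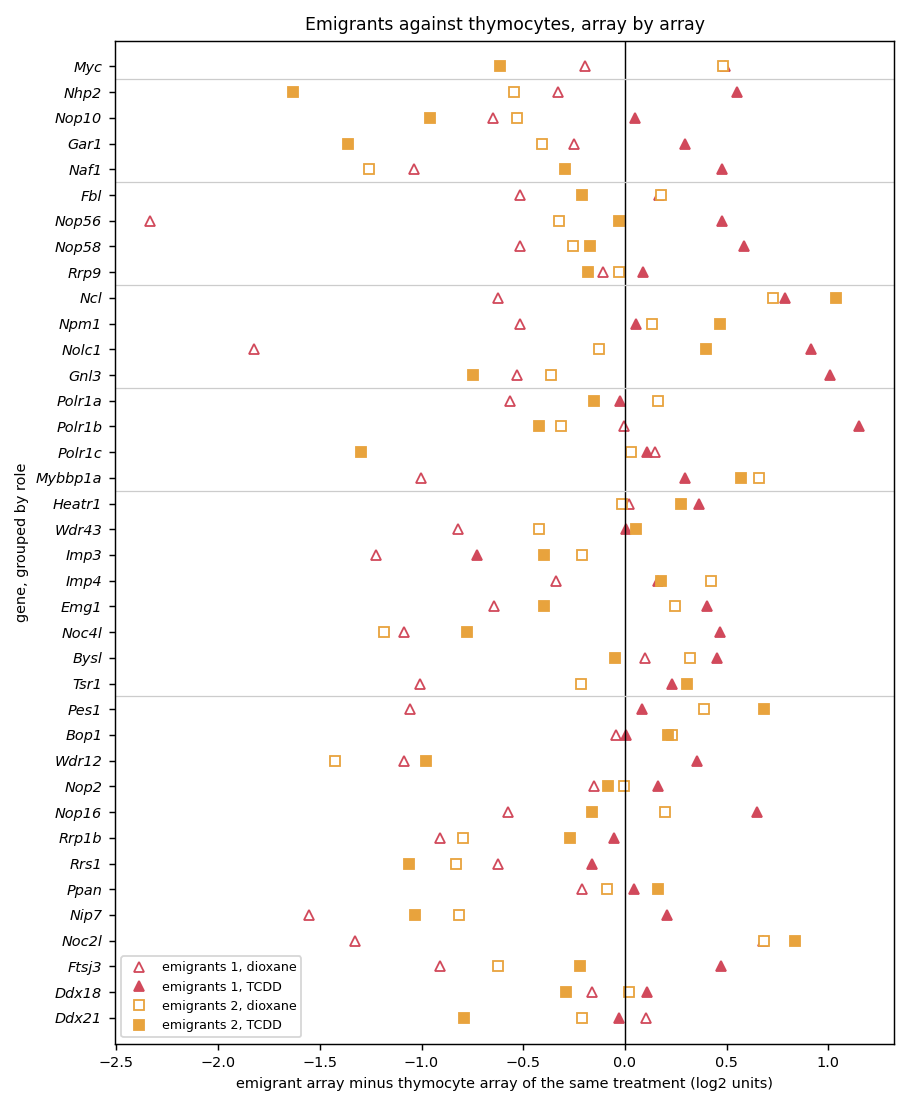
Each emigrant array minus the thymocyte array of the same treatment, in log2 units (horizontal axis), for the 38 genes (vertical axis, grouped by role). Triangles are emigrants 1 and squares emigrants 2, open for dioxane and filled for TCDD. Open triangles lie left of 0 for 34 genes and filled triangles right of 0 for 33.

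Gene lists around this set were read in the same 3 pairs. Of 86 other ribosome assembly factors, 74 were lower with TCDD in thymocytes, 28 in emigrants 1 and 76 in emigrants 2, with medians of -0.34, 0.21 and -0.29. None passed, and Pwp1, a nucleolar WD-repeat protein, had the smallest p (-0.68 ± 0.17, limma adjusted p = 0.811, n = 3). Pwp1 measured 8.14 and 7.49 in thymocytes, 8.34 and 7.58 in emigrants 1, and 8.00 and 7.37 in emigrants 2. Of 23 Myc-regulated growth genes outside the nucleolus, 20, 8 and 20 were lower, with medians of -0.58, 0.34 and -0.65. Ppat, the first enzyme of purine synthesis, had a fitted difference of -1.47 ± 0.27 (limma adjusted p = 0.742, n = 3) and did not pass.

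Ribosomal proteins themselves, the products that these factors assemble, behaved otherwise in the pairs where the assembly genes were lower. For 40 of them, 21, 3 and 26 were lower with TCDD, with medians of -0.013, 0.68 and -0.076. Their median level was 10.23 on the emigrants 1 dioxane array and 11.14 to 11.48 on the other 5. Many ribosomal protein genes have near-identical processed copies, so their probe sets are uncertain. Among 10 genes of the Myc family and its partners the pair medians were -0.078, 0.068 and 0.052. Mxd4, a Max-binding repressor that opposes Myc, measured 6.03 and 8.31 in thymocytes, 4.92 and 6.83 in emigrants 1, and 7.17 and 7.45 in emigrants 2, a fitted difference of 1.49 ± 0.64 that did not pass (limma adjusted p = 0.958, n = 3). limma called 0 of the genes of these 4 lists in each of the 4 comparisons.

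**Figure D5:**
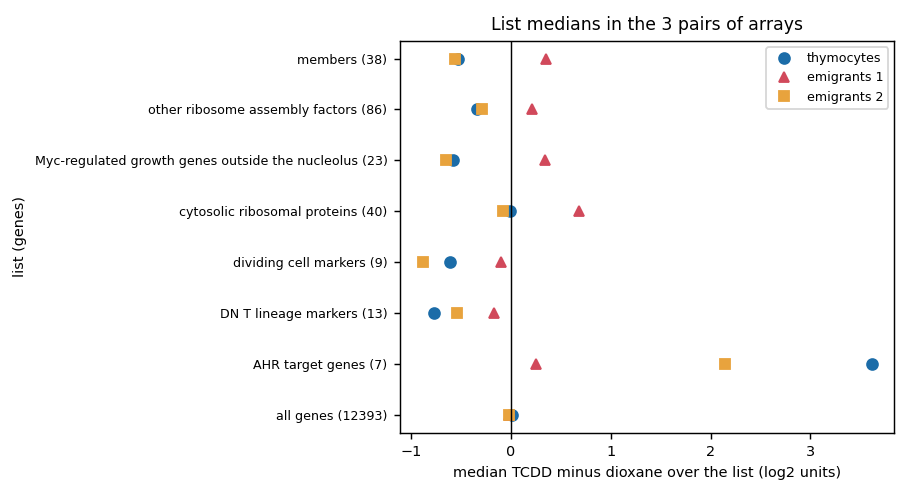
Median TCDD minus dioxane in log2 units (horizontal axis) over each gene list (vertical axis, number of genes in parentheses) in thymocytes (circles), emigrants 1 (triangles) and emigrants 2 (squares). The members (38 genes) have medians of -0.53, 0.35 and -0.56, and AHR target genes of 3.62, 0.26 and 2.14.

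Other measures also differed within the pairs, not all in the pattern of the nucleolar genes. The median of 7 AHR target genes was higher with TCDD by 3.62 in thymocytes, 0.26 in emigrants 1 and 2.14 in emigrants 2. In emigrants 1 only 4 of the 7 were higher and 3 were lower, while 7 of 7 were higher in each of the other pairs. Markers of dividing cells (9 genes) had medians of -0.62, -0.097 and -0.89, and DN T-lineage markers of -0.77, -0.18 and -0.54. In emigrants 1 granulocyte and mast cell markers were higher with TCDD by a median of 0.94 (11 of 12 higher), and in emigrants 2 macrophage and dendritic markers by 1.83 (11 of 11 higher). Actin probe sets at the 3′ end exceeded those at the 5′ end by 4.15 with TCDD and 3.48 with dioxane in thymocytes, 3.77 and 3.06 in emigrants 1, and 3.36 and 3.01 in emigrants 2, a measure that grows as RNA is degraded or copied incompletely. The same measure for Gapdh was 5.86 with TCDD and 6.10 with dioxane in thymocytes, 5.60 and 4.75 in emigrants 1, and 4.75 and 4.69 in emigrants 2, so the actin and Gapdh measures differed in sign in thymocytes. The part of these in the differences of the nucleolar genes was not tested.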

How the data were processed

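The deposited values are log2 RMA summaries that the authors made with the Bioconductor affy package, per the submitters' processing notes and the series design text, in versions not given in the sources used here. Of 22690 probe sets, 64 controls, 691 with several symbols and 1555 without a symbol were left out, leaving 20380 with 1 symbol for 12393 genes (GEO's platform annotation). Symbols are those of the annotation. All genes were fitted with lmFit and eBayes of limma 3.58.1 (R 4.3.3), without an intensity trend, with Benjamini-Hochberg adjustment over all of them. A call needs an adjusted p under 0.05. A lone array is assumed to vary like the others. Single arrays were described by differences of at least 2-fold. The code was tested on simulated data with known changes.

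Members and gene lists were chosen with earlier results of these data known. All members could be named. Fitted values were given for Myc and for the 6 members of smallest p in each comparison, since none was called, and for at most 3 genes of smallest p in each other list. Alternatives were 3 normalisations (quantile, cyclic loess, median centring), removal of genes below the median level, a trended prior, means over probe sets, a threshold of 0.10, the array number as a block and omission of arrays.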

Additional observations from a re-analysis of the deposited data

How the results depend on the processing

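Normalisation, the filter on dim genes, the intensity trend, the mean over probe sets and the threshold of 0.10 left 0 genes called in all 4 comparisons. Except for the threshold, which bears on counts alone, these were also run on the medians over the members and on Myc and 6 members per comparison, and each value obtained kept its sign. The filter left 32 of the 38 members, without Tsr1, Ftsj3, Nolc1, Nop16, Ppan and Nop2. Other genes were not run under the alternatives. With the array number as a replicate block the counts stayed at 0 (smallest adjusted p of a member, limma, 0.284 for Naf1) and the medians at -0.21 (both sources), -0.11 (emigrants) and 0.38 (difference of effects); no such fit was made for emigrants against thymocytes, where the pairs lie within a source. The omission of a thymocyte array could not be fitted for the difference of effects. Deviations of the emigrant arrays of the same number correlated at 0.560 across all genes, which are not independent replicates. Leaving out each array gave medians of -0.40 to 0.032 in emigrants and -0.28 to 0.066 for emigrants against thymocytes, where 0 to 7 genes were called. The 7 calls came without the emigrants 2 dioxane array and held no member. Differences of Myc then ran from -0.74 to -0.11 over both sources, -1.07 to 0.040 in emigrants, -0.18 to 0.29 between sources and -0.76 to 0.35 for the difference of effects. Without both emigrant 1 arrays, an alternative chosen after seeing the data, Myc differed by -0.067 between sources. The cause of these moves was not tested. Few arrays, and values near background for Ftsj3, Tsr1, Nop16 and Ppan, limit what can be called.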
